A study of Rattus norvegicus with 300 samples.

Results

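The comparison set 5 Raphe libraries of rats given probiotics against 5 Raphe libraries of rats given maltodextrin, chosen by the region and treatment named in the sample labels, out of 300 libraries in all. All groups were male Long Evans rats of 60 days that took their treatment in the drinking water for 3 weeks. The Probiotics rats took a probiotic, whose dose is not printed because the labels write it in forms that disagree and whose bacterial strains the labels do not name. Maltodextrin rats drank maltodextrin, a starch-derived sugar, at 10 g/L, which the labels call a control. Control rats drank water only and are used here as a second point of comparison. Tissue was punched from frozen sections of 250 µm, and the punches of a region were pooled before RNA was extracted. The labels do not say how many rats went into a pool, and p-values therefore speak only of the spread between pooled libraries, which may be technical. Reads were counted for 17337 genes, of which 12201 passed the filter on low counts and were tested.

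The raphe nuclei of the brainstem hold most of the serotonin neurons of the brain. These neurons make serotonin from tryptophan with the enzymes Tph2 and Ddc, load it into vesicles with Slc18a2 and take it back up with Slc6a4, and their fibres reach almost the whole forebrain. Bacteria in the gut can act on the brain through the vagus nerve, immune signals, bacterial metabolites and the supply of tryptophan, and probiotics have been studied for their effects on stress and mood.

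The Probiotics libraries held 10150085 to 11934137 counts and the Maltodextrin libraries 9807888 to 13787899, against 12935701 to 16235135 in Control. Between 14781 and 15101 genes had at least 1 count in Probiotics, 14352 to 14653 in Maltodextrin and 14190 to 14308 in Control. Raphe libraries carried the label's defining markers. On raw totals, Tph2 stood at 428 to 472 CPM (counts scaled to a common library total) in Probiotics, 445 to 475 CPM in Maltodextrin and 731 to 791 CPM in Control, against at most 20.8 CPM in the libraries of the same 3 treatments from the other 9 regions. Maltodextrin replicate 5 stood apart from the other 4 libraries of its group in many genes, and results that lean on it are also given without it. The labels name no batch, so treatment and any step of punching or library making that went along with it cannot be told apart.

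Expression differed widely between the groups. At an adjusted p of 0.05 (quasi-likelihood test of edgeR, Benjamini-Hochberg over all genes tested), 2394 genes were higher in Probiotics (19.6% of those tested) and 2633 were lower (21.6%). The median over all genes tested was -0.016 on the log2 scale. Large changes went mostly upwards, since 332 of the higher genes and 42 of the lower genes passed 2-fold. Libraries of both groups did not overlap for 3943 genes (32.3%), and 3718 of these were called. Without Maltodextrin replicate 5, 2339 genes were higher and 2201 lower, and 4356 of the calls kept their direction. Levels below are given in normalised CPM, that is CPM scaled by edgeR's TMM factors, and fold changes as Probiotics minus Maltodextrin on the log2 scale with the standard error (SE) of the fit. In bulk tissue, fewer cells of a type and less RNA per cell cannot be told apart.

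**Figure D1:**
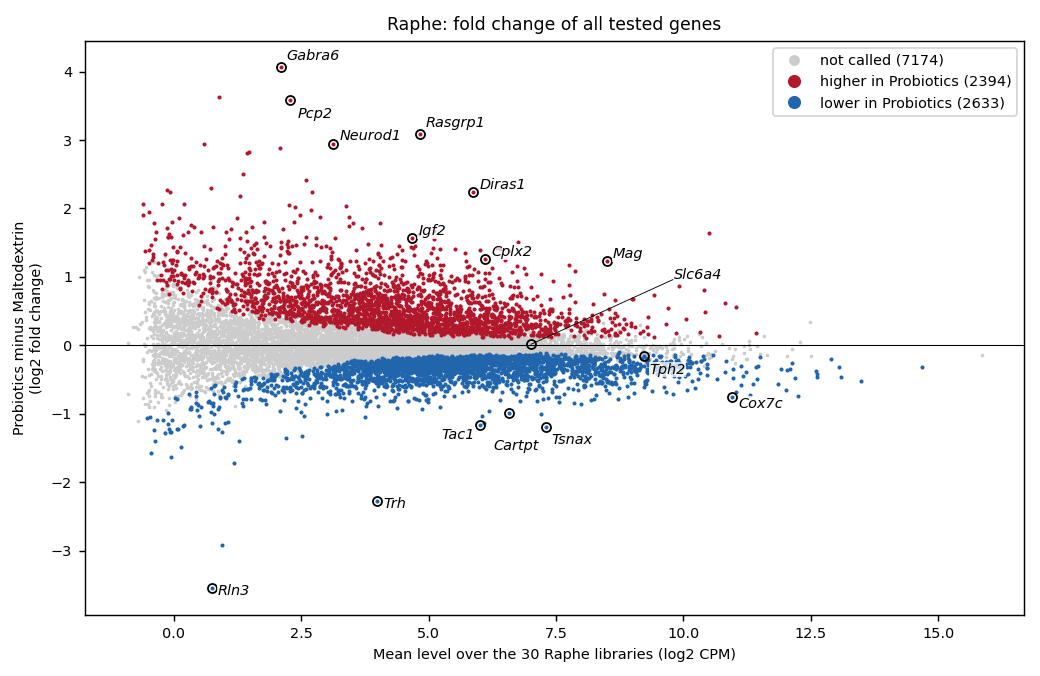
Log2 fold change of Probiotics against Maltodextrin (vertical axis) by mean log2 CPM over the 30 Raphe libraries (horizontal axis), 1 point per tested gene. Of 12201 genes, 2394 were higher (red) and 2633 lower (blue); Gabra6, Pcp2, Rasgrp1 and Neurod1 lie highest among the circled genes, and Rln3 and Trh lowest.

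Control offers a second scale for these changes. Against Control, 2469 genes were higher (20.2%) and 2877 lower (23.6%) in Probiotics, while 1873 were higher (15.4%) and 2191 lower (18%) in Maltodextrin. The 3 comparisons share libraries, so the values are set side by side and no overlap is given. Which of the groups departed from the others differed from gene to gene, as the values of single genes below show. Counts over gene lists below stand against the 19.6% higher and 21.6% lower of all genes.

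Serotonin neuron genes did not move as a group. Of 16 tested members of the list, 3 were higher, 4 were lower and 9 were not called, with a median of 0.0041 against -0.016 over all genes. The summed level of the list was 1540 to 1639 CPM in Probiotics, 1688 to 1972 CPM in Maltodextrin and 1970 to 2177 CPM in Control, and none of its genes was at 0 in all libraries of a group. Without Maltodextrin replicate 5, 4 members were higher and 2 lower.

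Tph2, which takes the first step of serotonin synthesis in neurons, had 441, 492, 436, 410.4 and 471 CPM in Probiotics and 475, 503, 502, 475 and 563 CPM in Maltodextrin. The groups overlapped, and the difference passed the test narrowly (log2 fold change -0.16, SE 0.0622, adjusted p = 0.0349). That call was lost in 10 of the alternative settings. These included leaving out Probiotics replicate 1, 3, 4 or 5 or Maltodextrin replicate 2, 3 or 5, where the value without Maltodextrin replicate 5 was -0.11 (adjusted p = 0.18). Corrected for promoter GC content, as described with its limit below, it was -0.10 (adjusted p = 0.186). Control libraries lay far above both groups, at 798 to 928 CPM. Probiotics was lower than Control by 0.92 (adjusted p = 1.88e-13) and Maltodextrin by 0.75 (adjusted p = 6.95e-11).

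Ddc, which turns the product of Tph2 into serotonin, fell in Probiotics. Its levels were 199, 209, 194, 195 and 198 CPM in Probiotics and 265, 259, 258, 249 and 294 CPM in Maltodextrin, without overlap (log2 fold change -0.41, SE 0.0515, adjusted p = 6.83e-08). In Control it stood at 239 to 261 CPM, close to Maltodextrin. The serotonin transporter Slc6a4 had 103, 105, 103, 91.3 and 104 CPM in Probiotics and 101, 98.5, 98.9, 101 and 102 CPM in Maltodextrin, and no difference was called (log2 fold change 0.017, SE 0.0491, adjusted p = 0.822). Probiotics replicate 4 was the low library of its group. Slc18a2, the vesicle transporter of monoamines, averaged 156 ± 5.58 CPM in Probiotics and 157 ± 4.47 CPM in Maltodextrin (SD, n = 5 each; adjusted p = 0.925). Both transporters were higher in Control, at 134 to 146 CPM and 177 to 196 CPM.

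Of the transcription factors of the serotonin lineage on the list, Fev, Gata3 and Gata2 rose, and the others were not called or not tested. Fev, which keeps serotonin neurons in their identity, had 9.58, 11.2, 9.49, 12 and 9.63 CPM in Probiotics, against 3.95, 5.82, 3.71, 5.38 and 6.29 CPM in Maltodextrin. Every Probiotics library was above every Maltodextrin library (log2 fold change 1.04, SE 0.15, adjusted p = 5.86e-07), with Control between them at 6.73 to 7.84 CPM. Gata3, a factor of the same lineage, stood at 12, 10.9, 10.8, 12.8 and 11.7 CPM in Probiotics and 4.71, 6.34, 4.69, 7.35 and 5.52 CPM in Maltodextrin (log2 fold change 1.02, SE 0.17, adjusted p = 8.1e-06). Gata2, which was named after its values were seen, was higher by 0.45 (adjusted p = 0.000401). Among the remaining called members, Sncg, a synuclein abundant in monoamine neurons, averaged 335 CPM in Probiotics and 427 CPM in Maltodextrin (-0.35), and Htr5b, a serotonin receptor, 1.22 CPM in Probiotics and 2.1 CPM in Maltodextrin (-0.77). The call of Htr5b was lost without Maltodextrin replicate 5 (-0.62, adjusted p = 0.0568). The autoreceptor Htr1a averaged 8.85 ± 0.553 CPM in Probiotics and 7.44 ± 0.96 CPM in Maltodextrin, with no call (adjusted p = 0.137). It was called higher without Maltodextrin replicate 5 (0.34, adjusted p = 0.0489) and with only the groups compared (0.27, adjusted p = 0.0464). Maob, an enzyme that breaks down monoamines, averaged 131 ± 2.94 CPM in Probiotics and 127 ± 1.49 CPM in Maltodextrin (adjusted p = 0.576).

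**Figure D2:**
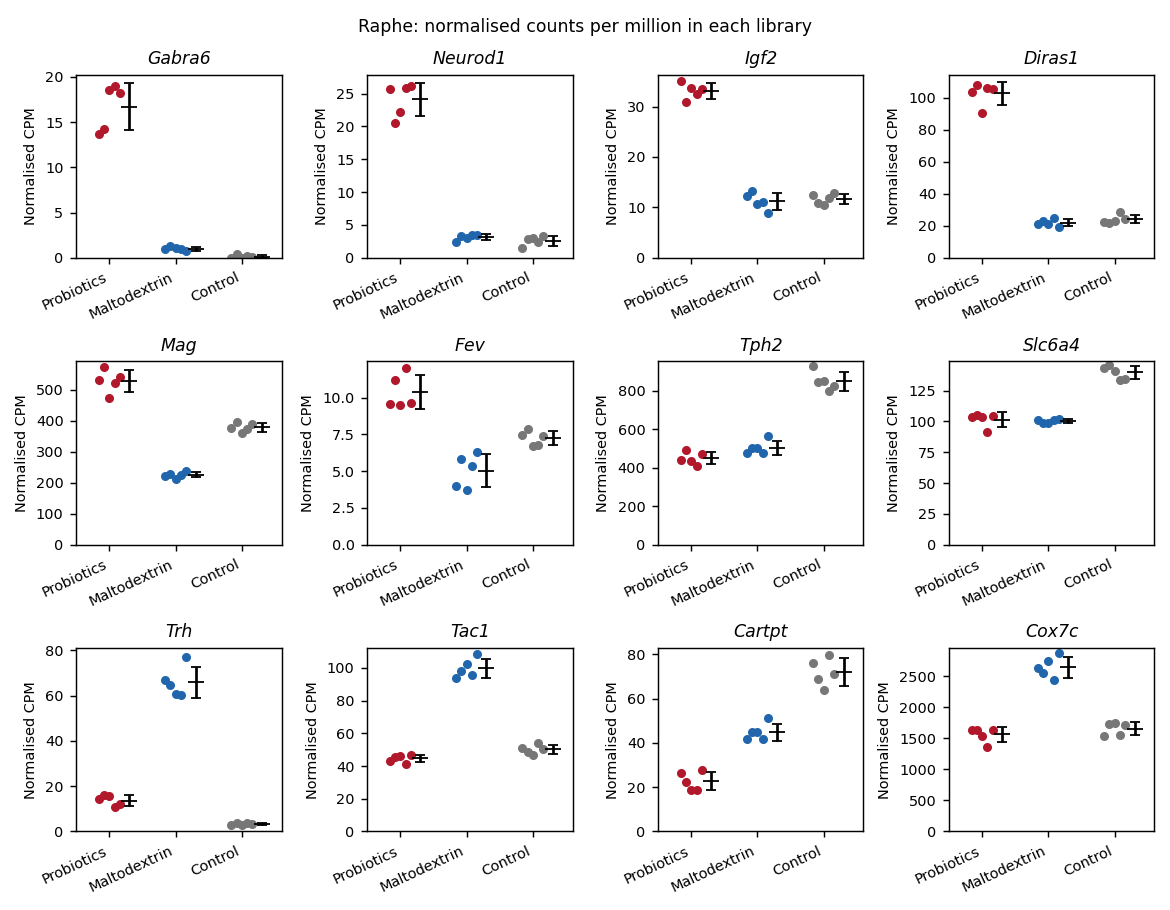
Normalised CPM (vertical axis, from 0) of 12 genes in the 5 Raphe libraries of Probiotics (red), Maltodextrin (blue) and Control (grey), with the mean and SD in black beside each group. Gabra6, Neurod1, Igf2, Diras1, Mag and Fev lie higher in every Probiotics library than in every Maltodextrin library, Trh, Tac1, Cartpt and Cox7c lie lower, and Tph2 and Slc6a4 overlap.

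Other monoamine genes gave 2 higher, 3 lower and 3 uncalled members of 8. Th, the first enzyme of dopamine and noradrenaline synthesis, averaged 235 ± 21.6 CPM in Probiotics and 182 ± 2.57 CPM in Maltodextrin (log2 fold change 0.37, SE 0.073, adjusted p = 0.000106). Maoa, which degrades monoamines, and Pts, an enzyme of the cofactor that Tph2 and Th need, fell by 0.17 and 0.37. Maoa lost its call without Maltodextrin replicate 5 (-0.13, adjusted p = 0.103) and without Probiotics replicate 5 (-0.13, adjusted p = 0.106). Of 13 tested serotonin receptors, 1 was higher, 2 lower and 10 uncalled. Htr2c, a receptor coupled to the Gq pathway, stood at 151, 153, 161, 151 and 155 CPM in Probiotics and 247, 249, 249, 247 and 264 CPM in Maltodextrin. The groups were far apart relative to their spread (log2 fold change -0.70, SE 0.0589, adjusted p = 2.06e-11), and Control, at 155 to 167 CPM, lay with Probiotics. Htr6, the higher member, averaged 0.794 CPM in Probiotics and 0.331 CPM in Maltodextrin, and its call was lost in 11 settings, among them leaving out Probiotics replicate 2, 3 or 4 or Maltodextrin replicate 1, 2 or 3. Of 6 tested genes of tryptophan transport and the kynurenine pathway, the other fate of tryptophan, only Slc7a8, an amino acid transporter, was called, higher by 0.29 (adjusted p = 0.0035).

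Neuropeptide precursors fell more often than they rose. Of 24 tested members, 9 were lower (37.5%, against 21.6% of all genes), 3 were higher (12.5%, against 19.6%) and 12 were not called, with a median of -0.19. Counts were also 9 and 3 without Maltodextrin replicate 5. Trh, Tac1 and Cartpt were the peptide genes among the lead genes, those with the largest changes or smallest p, and their promoters are shown for that reason. Each line gives the 250 bases before the gene's start, 5′ to 3′ on the gene's strand, from RefSeq on GRCr8, a build other than that of the counts. Capitals mark the core letters TGACG of the cAMP response element, in either orientation (CGTCA on the other strand).
Trh (chr4:126301763-126302012, minus strand): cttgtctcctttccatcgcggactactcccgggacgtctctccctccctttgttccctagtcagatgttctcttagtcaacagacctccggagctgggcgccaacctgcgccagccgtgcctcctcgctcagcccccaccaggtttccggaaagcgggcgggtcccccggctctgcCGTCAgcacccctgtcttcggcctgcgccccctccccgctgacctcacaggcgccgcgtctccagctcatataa
Tac1 (chr4:36645333-36645582, plus strand): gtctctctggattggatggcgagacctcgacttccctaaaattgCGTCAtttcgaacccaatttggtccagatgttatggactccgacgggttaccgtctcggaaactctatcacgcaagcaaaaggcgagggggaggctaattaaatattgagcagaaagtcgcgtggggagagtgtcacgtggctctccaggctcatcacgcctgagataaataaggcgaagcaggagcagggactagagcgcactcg
Cartpt (chr2:32991236-32991485, minus strand): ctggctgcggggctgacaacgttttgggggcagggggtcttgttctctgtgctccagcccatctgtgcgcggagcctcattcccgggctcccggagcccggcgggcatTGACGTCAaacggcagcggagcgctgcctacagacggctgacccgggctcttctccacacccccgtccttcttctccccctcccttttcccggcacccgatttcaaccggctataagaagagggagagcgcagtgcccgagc
The core was found in 19% of 27457 rat promoters of this length, and the full palindrome TGACGTCA, which holds the core on both strands and which Cartpt carries, in 1.7%. Of 17 promoters of the peptide list, 11 held the core, among them 5 of 7 lower genes, 1 of 2 higher genes and 5 of 8 that were not called. A match of letters describes the sequence and shows no binding.

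Trh encodes thyrotropin-releasing hormone, which hypothalamic and some brainstem neurons make. Its levels were 14.2, 15.9, 15.4, 10.7 and 11.9 CPM in Probiotics and 66.7, 64.9, 60.6, 60.2 and 77.2 CPM in Maltodextrin (log2 fold change -2.27, SE 0.10, adjusted p = 4.46e-18). Control lay below both, at 2.89, 3.88, 3.02, 3.56 and 3.09 CPM. Probiotics was above Control by 2.05 (adjusted p = 7.26e-14) and Maltodextrin above Control by 4.32 (adjusted p = 2.34e-24). Set against the mean of Maltodextrin and Control, Probiotics differed by -0.11 and the call was lost (adjusted p = 0.412). The other 3 treatments of the study were at 3.31 to 4.87 CPM (Bupropion), 2.84 to 4.59 CPM (Desipramine) and 3.16 to 5.02 CPM (FT, which the labels do not spell out).

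Tac1, the precursor of substance P and neurokinin A, also had Maltodextrin as its high group. It stood at 42.9, 45.7, 46.4, 41.4 and 46.7 CPM in Probiotics, against 93.9, 98.4, 102, 95.8 and 109 CPM in Maltodextrin (log2 fold change -1.16, SE 0.0588, adjusted p = 1.3e-16). Control had 46.8 to 54.2 CPM, just above Probiotics. Cartpt, the precursor of CART peptides, had 26.4, 22.3, 18.9, 18.6 and 27.8 CPM in Probiotics and 41.8, 44.8, 44.9, 41.7 and 51.3 CPM in Maltodextrin (log2 fold change -0.98, SE 0.10, adjusted p = 2.73e-09). Here Control was highest, at 63.9 to 79.7 CPM, so Maltodextrin lay between the others.

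Rln3 encodes relaxin-3, a peptide made mainly in the nucleus incertus of the pons, near the raphe. It was scarce, at 0.0819, 0.386, 0.0862, 0.365 and 0.104 CPM in Probiotics and 2.61, 2.26, 2.73, 2.59 and 2.24 CPM in Maltodextrin (log2 fold change -3.55, SE 0.38, adjusted p = 2.94e-09). Control had 0.777 to 1.57 CPM, and Bupropion had 0 to 0.359 CPM, as low as Probiotics. The remaining peptide genes that fell were Adcyap1 (-0.78), Nmb (-0.64), Nts (-0.41), Vip (-0.34) and Penk (-0.23), named here to account for the count. Those that rose were Oxt (2.5), Avp (1.28) and Tac3 (0.55), all at low levels. Oxt, the oxytocin precursor, had 2.62, 1.16, 3.62, 2.37 and 1.97 CPM in Probiotics and 0.168, 0.521, 0.873, 0.414 and 0.172 CPM in Maltodextrin, with 1.01 to 2.59 CPM in Control. Crh, the stress peptide, averaged 8.79 ± 1.21 CPM in Probiotics and 10.3 ± 0.657 CPM in Maltodextrin and was not called (adjusted p = 0.0775). Without Probiotics replicate 3 it was called lower (-0.29, adjusted p = 0.0469).

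Genes of cerebellar neurons gave the largest rises. The brainstem adjoins the cerebellum, and the list holds genes of granule and Purkinje cells. Of its 10 members, all tested, 8 were higher and none lower, with a median of 1.53 against -0.016 over all genes. Gabra6, a GABA-A receptor subunit of granule cells, had 13.7, 14.2, 18.5, 19 and 18.2 CPM in Probiotics and 0.925, 1.3, 1.09, 0.931 and 0.69 CPM in Maltodextrin (log2 fold change 4.07, SE 0.22, adjusted p = 3.03e-16). Control had 0 to 0.38 CPM. Pcp2, a Purkinje cell gene, stood at 18.5, 13.7, 14.6, 17.2 and 18.7 CPM in Probiotics and 1.93, 0.781, 1.09, 1.76 and 1.29 CPM in Maltodextrin (log2 fold change 3.58, SE 0.24, adjusted p = 1.11e-13). No library of either group came near the other.

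Neurod1, a transcription factor of granule cells and other excitatory neurons, was at 25.6, 20.6, 22.3, 25.8 and 26.2 CPM in Probiotics and 2.44, 3.3, 3.06, 3.41 and 3.45 CPM in Maltodextrin (log2 fold change 2.94, SE 0.12, adjusted p = 8.82e-19), the smallest p of all genes. Cbln3, a granule cell gene, averaged 8.28 ± 1.29 CPM in Probiotics and 1.2 ± 0.525 CPM in Maltodextrin (2.83). Fat2, a cadherin of granule cells that led the higher genes without being on the list, had 15.1, 13.4, 15.4, 19.2 and 15.1 CPM in Probiotics and 3.78, 3.65, 2.84, 3.31 and 2.85 CPM in Maltodextrin (log2 fold change 2.24, SE 0.14, adjusted p = 4.36e-14). Zic1, Zic2, Barhl1 and Car8, named to account for the count, rose by 1.9, 0.69, 1.17 and 0.62. Pvalb and Cbln1, which brainstem neurons also make, were not called, at -0.048 and -0.16. Because Pvalb holds most of the list's counts, the summed level differed less, at 463 to 506 CPM in Probiotics, 399.6 to 497 CPM in Maltodextrin and 362 to 416 CPM in Control, with no gene at 0 in all libraries of a group. How far cerebellar tissue in the punches contributed to other results was not tested.

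**Figure D3:**
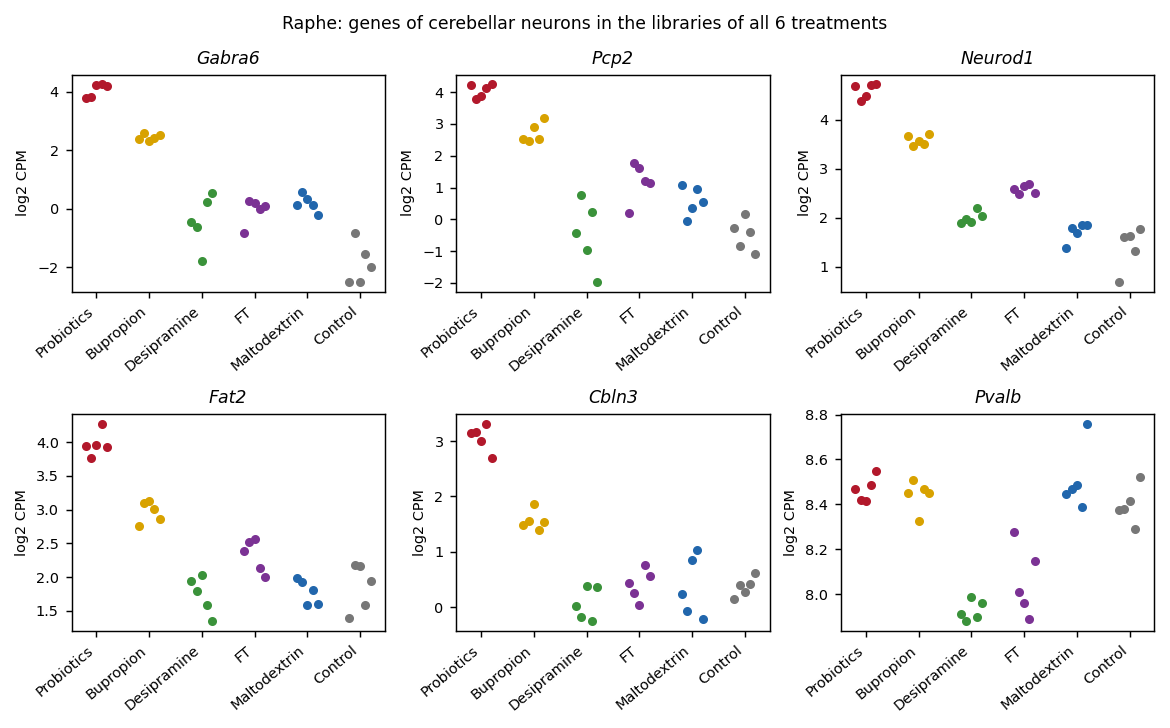
Log2 CPM (prior count 2, vertical axis) of 6 genes of cerebellar neurons in the 5 Raphe libraries of each of the 6 treatments. Gabra6, Pcp2, Neurod1, Fat2 and Cbln3 are highest in Probiotics and next highest in Bupropion, with Maltodextrin and Control low, while Pvalb does not separate Probiotics from Maltodextrin.

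Of the other treatments, Bupropion was nearest to Probiotics, with Gabra6 at 4.8 to 5.85 CPM, Pcp2 at 5.32 to 8.84 CPM and Neurod1 at 10.8 to 12.9 CPM. In FT libraries Neurod1 was at 5.39 to 6.31 CPM, also above Maltodextrin, while Gabra6, at 0.39 to 1.02 CPM, was not. In LConly, another punched region whose name the labels do not spell out, the same genes were abundant and were also higher in Probiotics. On raw totals, Gabra6 there was at 56.0 to 71.6 CPM in Probiotics and 18.1 to 28.1 CPM in Maltodextrin, and Pcp2 at 200.5 to 275 CPM in Probiotics and 61.8 to 84.2 CPM in Maltodextrin. The log2 fold change there was 1.73 for Gabra6, 1.73 for Pcp2 and 1.72 for Neurod1, and its difference from Raphe was not tested. For Neurod1 the change in Raphe was larger than the mean change of the 4 regions CGC, mPOA, NACShell and PLC (difference 2.32 on the log2 scale, SE 0.14, adjusted p = 1.66e-17). Gabra6 passed the filter on low counts in 1 of those regions and Pcp2 in none, so their differences (3.56 and 1.64) rest on few counts there.

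Genes of forebrain excitatory neurons were higher in 5 of 8 tested members and lower in none, with a median of 0.85. The summed level of the list differed little, at 271 to 299.7 CPM in Probiotics, 263 to 277 CPM in Maltodextrin and 216 to 222 CPM in Control. Slc17a7, the vesicular glutamate transporter of cortical and granule cell neurons, had 32.8, 28.7, 32.9, 31.9 and 25.1 CPM in Probiotics and 19.8, 18.8, 15.2, 18.9 and 18.8 CPM in Maltodextrin (log2 fold change 0.72, SE 0.0937, adjusted p = 1.4e-07). Control, at 28.2 to 33.6 CPM, lay with Probiotics. Neurod2 and Fezf2, transcription factors at low levels, rose by 1.06 and 1.38. Of 6 tested hypothalamic and preoptic genes, Oxt and Avp were higher and none was lower, and of 3 noradrenaline neuron genes only Tfap2b was called, at 1.79 ± 0.312 CPM in Probiotics and 0.939 ± 0.418 CPM in Maltodextrin (0.96).

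Dopamine neuron and midbrain genes gave 3 higher and 4 lower of 9. Lmx1a, a transcription factor of midbrain floor plate derivatives, fell to 6.3, 7.33, 7.5, 4.65 and 6.63 CPM in Probiotics, against 14, 12.2, 14, 13.4 and 11.6 CPM in Maltodextrin (log2 fold change -1.0, SE 0.13, adjusted p = 2.11e-07). Foxa2, a factor of the same tissue, averaged 3.33 ± 0.349 CPM in Probiotics and 5.83 ± 0.461 CPM in Maltodextrin (-0.81). For both, Control lay nearer to Probiotics, at 6.17 to 9.13 CPM and 3.63 to 4.62 CPM. Aldh1a1, an enzyme of retinoic acid synthesis found in dopamine neurons, fell by 0.22.

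Synaptic vesicle and release genes rose as a group. Of 24 members, 18 were higher (75%, against 19.6% of all genes), 1 was lower and 5 were not called, with a median of 0.39, and the 18 and 1 were also counted without Maltodextrin replicate 5. Cplx2, a complexin that clamps fusion, stood at 104, 100.3, 92.1, 103 and 111 CPM in Probiotics and 39, 40.02, 43.8, 47.4 and 43.5 CPM in Maltodextrin (log2 fold change 1.26, SE 0.12, adjusted p = 1.91e-10). Vamp2, the vesicle SNARE, and Syt2, the fast calcium sensor of brainstem synapses, rose by 0.68 and 0.72. Control took different places. It lay between the groups for Cplx2 and Vamp2, with means of 61.9 and 418 CPM, and with Maltodextrin for Syt2, where the means were 156 CPM in Probiotics, 95.2 CPM in Maltodextrin and 94.2 CPM in Control.

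HCN and potassium channels set resting potential and firing rate. Of 30 members, 19 were higher (63.3%, against 19.6% of all genes), 3 lower (10%, against 21.6%) and 8 uncalled, with a median of 0.34, and 16 and 3 were counted without Maltodextrin replicate 5. Kcnk9, a leak channel, stood at 44.9, 47.3, 45.7, 43.7 and 49.8 CPM in Probiotics and 19.8, 22.1, 19.5, 21.9 and 14.8 CPM in Maltodextrin (log2 fold change 1.24, SE 0.0847, adjusted p = 1.78e-13). Hcn2, a pacemaker channel, was at 97.6, 75.2, 76.4, 84.1 and 90.5 CPM in Probiotics and 47.3, 50.5, 46.7, 50.2 and 47 CPM in Maltodextrin (log2 fold change 0.81, SE 0.0819, adjusted p = 1.2e-09). In Control, Kcnk9 lay between the groups at 30.3 to 33.5 CPM.

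Receptors for the fast transmitters moved in both directions. Of 16 AMPA, kainate and NMDA receptor subunits, 8 were higher and 3 lower, with a median of 0.30. Grin1, the obligatory NMDA receptor subunit, averaged 74.1 ± 4.13 CPM in Probiotics and 44.7 ± 2.58 CPM in Maltodextrin (0.73), and Grin2c and Grik3 rose by 0.81 and 1.21. Gria2, the AMPA receptor subunit that limits calcium entry, fell to 277, 275, 271, 270.03 and 277 CPM in Probiotics, against 388, 374, 379, 385 and 367 CPM in Maltodextrin (log2 fold change -0.47, SE 0.0647, adjusted p = 4.77e-07). Of 15 GABA-A receptor subunits, 5 were higher and 2 lower. Next to Gabra6, Gabrd, a subunit that granule cells also use, was at 8.35, 5.89, 6.81, 6.48 and 7.04 CPM in Probiotics and 1.68, 1.04, 2.73, 2.69 and 2.67 CPM in Maltodextrin (1.7). Gabrb1, a widespread subunit, fell by 0.36.

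Genes of transmitter synthesis and transport moved in both directions. Of 9 vesicular glutamate and glycine genes, 6 were higher and 1 lower, with a median of 0.55. Without Maltodextrin replicate 5, 4 were higher and 1 lower, with a median of 0.38. Slc17a6, the glutamate transporter of brainstem and thalamic neurons, was the one that fell, to 126, 119, 129, 119.7 and 114 CPM in Probiotics, against 183, 187, 198, 188 and 179 CPM in Maltodextrin (log2 fold change -0.62, SE 0.0654, adjusted p = 2.76e-09). Slc17a8, which serotonin neurons also use, rose to 51.7, 56.8, 52.6, 53.3 and 52.1 CPM in Probiotics, against 33.5, 32.6, 33.2, 32.8 and 24.9 CPM in Maltodextrin (log2 fold change 0.77, SE 0.12, adjusted p = 4.31e-06). Without Maltodextrin replicate 5 its change was 0.70 (adjusted p = 3.78e-05). Glra1, a glycine receptor subunit, and Slc6a9, a glycine transporter, rose by 0.91 and 0.93. Of 6 GABA genes, 3 were higher and 2 lower. The synthesis enzymes Gad1 and Gad2 fell by 0.30 and 0.25. Slc6a11, a GABA transporter of astrocytes, and Abat, which breaks GABA down, rose by 0.64 and 0.45. Summed, these 6 genes stood at 1078 to 1145 CPM in Probiotics, 1055 to 1142 CPM in Maltodextrin and 1237 to 1330 CPM in Control.

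**Figure D4:**
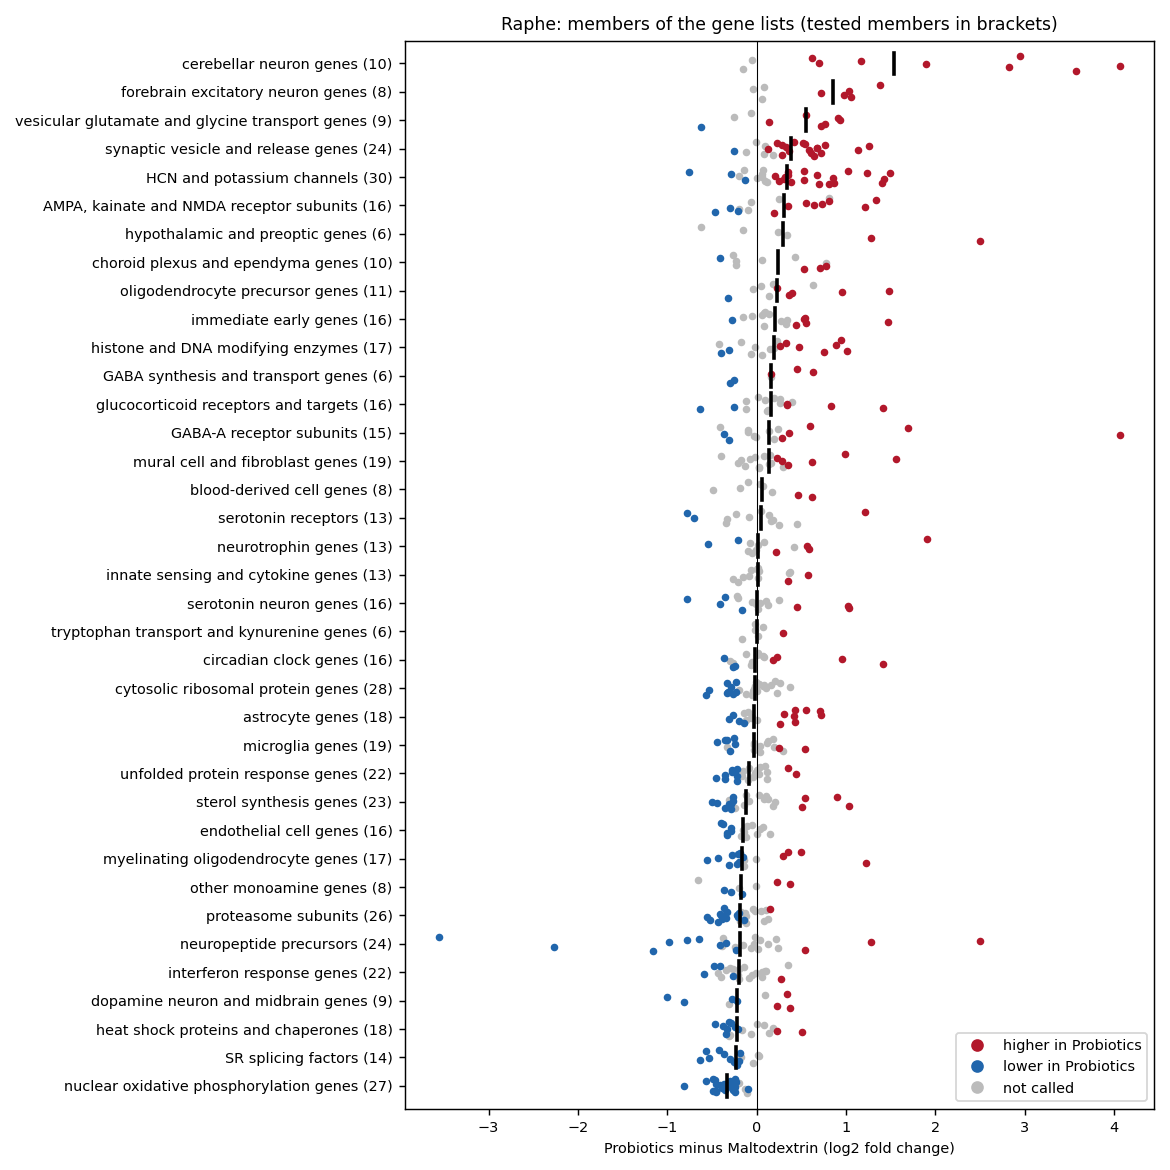
Log2 fold change of Probiotics against Maltodextrin (horizontal axis) for the tested members of each gene list with at least 6 of them, 1 point per gene, with the list's median as a black bar. Medians run from -0.33 for nuclear oxidative phosphorylation genes to 1.53 for cerebellar neuron genes.

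Nuclear genes of oxidative phosphorylation fell together. These genes encode subunits of the respiratory chain and ATP synthase. Of 27 members, 23 were lower (85.2%, against 21.6% of all genes) and none was higher, with a median of -0.33, and 18 were lower without Maltodextrin replicate 5. Sdhd, a subunit of complex II, had 122, 104, 111, 109 and 90.5 CPM in Probiotics and 186, 197, 189, 185 and 187 CPM in Maltodextrin (log2 fold change -0.81, SE 0.0668, adjusted p = 1.51e-11). Cox7c, a subunit of complex IV that is outside the list and was a lead gene, stood at 1635, 1639, 1540, 1359 and 1642 CPM in Probiotics and 2638, 2548, 2743, 2435 and 2877 CPM in Maltodextrin (log2 fold change -0.76, SE 0.0624, adjusted p = 1.43e-11). The groups did not overlap, and Control, at 1533 to 1754 CPM, lay with Probiotics. Cox6c, Ndufa4 and Uqcrfs1, of complexes IV and III, fell by 0.57, 0.45 and 0.45. Against Control, 18 of the 27 were lower and 1 higher in Probiotics, while 8 were higher and 1 lower in Maltodextrin.

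Proteasome subunits fell more often than they rose, while the median of ribosomal protein genes stayed near 0. Of 26 proteasome subunits, 14 were lower and 1 higher, with a median of -0.19, and Psmb3, Psma2, Psma5 and Psmc2 fell by 0.56, 0.43, 0.52 and 0.41. Without Maltodextrin replicate 5 the counts were 10 and 2. Of 28 cytosolic ribosomal protein genes, 9 were lower (32.1%, against 21.6% of all genes), none was higher and 19 were not called. The median was -0.024, and it was 0.037 without Maltodextrin replicate 5 and 0.033 when corrected for promoter GC content, as described below. Rpl3, Rpl27, Rpl10 and Rpl5 fell by 0.57, 0.54, 0.33 and 0.27. With that correction Rpl27 lost its call (-0.17, adjusted p = 0.189), but that value is not relied on, for the reason given below. Of 18 heat shock proteins and chaperones, 8 were lower and 2 higher. Hspa8, the constitutive chaperone, averaged 3695 ± 338 CPM in Probiotics and 4692 ± 546 CPM in Maltodextrin (-0.34), and Cct2, Cct4 and Hspd1, which fold proteins in closed chambers, fell by 0.29, 0.31 and 0.24. Of 22 unfolded protein response genes, 8 were lower and 2 higher, and Pdia3, Atf4, Canx and Pdia6 fell by 0.46, 0.36, 0.35 and 0.22.

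The list of SR splicing factors, which bind exons and steer splice site choice, and their kinases had 10 of 14 members lower and none higher, with a median of -0.24. Srsf5 had 119, 118, 129, 113 and 104 CPM in Probiotics and 176, 184, 187, 169 and 186 CPM in Maltodextrin (log2 fold change -0.63, SE 0.0641, adjusted p = 1.34e-09). Clk1, a kinase that phosphorylates these factors, stood at 63.9, 64.4, 66.3, 67 and 59.8 CPM in Probiotics and 91.6, 99.9, 92.6, 95.6 and 95.2 CPM in Maltodextrin (log2 fold change -0.56, SE 0.058, adjusted p = 1.85e-09). Srsf7 and Clk4 fell by 0.54 and 0.42. Control lay with Maltodextrin for Srsf5 and Clk1, at 182 to 203 CPM and 91.9 to 98.4 CPM. Without Maltodextrin replicate 5, 8 members were lower.

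Sterol synthesis genes gave 4 higher and 8 lower of 23. The enzymes Cyp51, Sqle and Hmgcs1 fell by 0.50, 0.44 and 0.35.

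Genes of myelinating oligodendrocytes gave 4 higher and 9 lower of 17, with a median of -0.16. Mag, the myelin-associated glycoprotein of the inner sheath, rose and had 532, 574, 475, 521 and 541 CPM in Probiotics and 223, 229, 213, 226 and 236 CPM in Maltodextrin (log2 fold change 1.23, SE 0.0776, adjusted p = 2.89e-14). Control lay between, at 359 to 395 CPM. Opalin and Mal, proteins of the myelin membrane, fell by 0.43 and 0.55, and Myrf, the transcription factor that switches myelin genes on, rose by 0.49. Mbp, the basic protein of compact myelin, had 60632, 77874, 48676, 56078 and 73649 CPM in Probiotics and 68264, 66851, 67028, 64252 and 82274 CPM in Maltodextrin and was not called (adjusted p = 0.467). Of 11 oligodendrocyte precursor genes, 5 were higher and 1 lower, and Sox10, Gpr17, Olig2 and Olig1 rose by 0.95, 1.48, 0.40 and 0.37. The precursor list summed to 432 to 472 CPM in Probiotics, 359 to 397 CPM in Maltodextrin and 333 to 354 CPM in Control.

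Astrocyte genes gave 8 higher and 4 lower of 18, with a median of -0.027. The 4 named here, those with the smallest p, were all higher. Fgfr3, a growth factor receptor of astrocytes, averaged 69.1 ± 5.98 CPM in Probiotics and 41.9 ± 1.84 CPM in Maltodextrin (0.72). Atp1b2, a sodium pump subunit, Agt, the angiotensin precursor, and Slc4a4, a bicarbonate transporter, rose by 0.71, 0.55 and 0.43. Agt lost its call against the mean of Maltodextrin and Control (0.16, adjusted p = 0.176). The whole list summed to 13929 to 17507 CPM in Probiotics, 16013 to 21135 CPM in Maltodextrin and 19565 to 23042 CPM in Control.

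Microglia genes gave 2 higher and 6 lower of 19, with a median of -0.028. Ctss, a lysosomal protease, fell by 0.33, and Tmem119 and Csf1r, the receptor that microglia need to survive, rose by 0.54 and 0.25. Without Maltodextrin replicate 5, 2 were higher and 4 lower. Of 22 interferon response genes, Mx2 was higher (0.27, a call lost without Maltodextrin replicate 5 or Probiotics replicate 3 or 4, adjusted p = 0.0626, 0.0531 and 0.0681) and 4 were lower. B2m, the light chain of MHC class I, averaged 651 ± 16.1 CPM in Probiotics and 868 ± 17.3 CPM in Maltodextrin (-0.41). Ifit3 and Psmb9 fell by 0.58 and 0.47. Psmb9, a subunit of the immunoproteasome, lost its call without Probiotics replicate 3 or 5 or Maltodextrin replicate 2 or 4. Of 13 genes of innate sensing and cytokines, Rela, a subunit of NF-kB, and Tlr3, a sensor of double-stranded RNA, rose by 0.58 and 0.35, and none fell. None of 4 tested MHC class II genes was called.

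Endothelial genes that were called were lower, and called genes of the mural cell and fibroblast list were higher. Of 16 endothelial genes, 6 were lower and none higher, and the transporters Slco1c1, Slc2a1 and Abcb1a and the membrane protein Itm2a fell by 0.38, 0.29, 0.34 and 0.39. The whole list summed to 485 to 505 CPM in Probiotics, 562 to 594 CPM in Maltodextrin and 567 to 583 CPM in Control. Of 19 mural cell and fibroblast genes, 6 were higher, none was lower and 13 were not called. Igf2, a growth factor that meninges and choroid plexus make in the adult brain, had 35, 30.9, 33.7, 32.4 and 33.6 CPM in Probiotics and 12.2, 13.3, 10.6, 11 and 8.88 CPM in Maltodextrin (log2 fold change 1.56, SE 0.0815, adjusted p = 2.17e-16). Its Control libraries were at 10.4 to 12.8 CPM and its Bupropion, Desipramine and FT libraries at 26.6 to 28.5, 29.1 to 35.5 and 33.7 to 42.7 CPM. Col1a1 and Islr, of fibroblasts, and Myh11, of smooth muscle, rose by 0.62, 0.99 and 0.35.

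The marker lists of blood and choroid plexus summed to more in Probiotics. Most of each sum in Probiotics and Maltodextrin came from a single gene. Hbb averaged 2417 CPM in Probiotics and 1579 CPM in Maltodextrin, and Ttr 61.2 CPM and 42.5 CPM. The blood list stood at 2236 to 2618 CPM in Probiotics, 1538 to 1806 CPM in Maltodextrin and 1208 to 1480 CPM in Control, and the choroid plexus and ependyma list at 91.7 to 102 CPM in Probiotics, 70.8 to 84.7 CPM in Maltodextrin and 39.8 to 45.9 CPM in Control. Of 8 tested blood-derived cell genes, Hbb and Alas2, both of red cells, were called higher (25%, against 19.6% of all genes), none was lower and 6 were not called. Hbb stood at 2351, 2501, 2213, 2426 and 2594 CPM in Probiotics and 1533, 1539, 1520, 1519 and 1785 CPM in Maltodextrin (log2 fold change 0.61, SE 0.0922, adjusted p = 1.89e-06). Of 10 tested choroid plexus and ependyma genes, 3 were higher (30%, against 19.6%), 1 was lower and 6 were not called. Without Maltodextrin replicate 5, 2 were higher and 0 lower. Ttr, which carries thyroid hormone and is made in the choroid plexus, had 64.1, 60.7, 68, 57.3 and 55.9 CPM in Probiotics and 50.8, 38.5, 42, 40.7 and 40.5 CPM in Maltodextrin (log2 fold change 0.53, SE 0.10, adjusted p = 6.92e-05), and Control had only 10.5 to 13.7 CPM. Slc4a5 and Kcnj13 rose by 0.78 and 0.71, and Enkur, of cilia, fell by 0.41. Kcnj13 lost its call without Maltodextrin replicate 5 (0.55, adjusted p = 0.0538), and Enkur without that library (-0.35, adjusted p = 0.104), Maltodextrin replicate 3 or Probiotics replicate 1 or 2. The part of blood and choroid plexus RNA in other results was not tested.

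Of 16 immediate early genes, which follow neuronal activity, 5 were higher (31.2%, against 19.6% of all genes) and 1 lower (6.25%, against 21.6%). Egr1 had 9.66, 7.72, 8.54, 9.67 and 8.8 CPM in Probiotics and 2.52, 3.04, 3.17, 3.31 and 4.05 CPM in Maltodextrin (log2 fold change 1.46, SE 0.14, adjusted p = 3.48e-10), and Jun and Jund rose by 0.44 and 0.56, while Nr4a2 fell by 0.28. Fos, the most used activity marker, averaged 6.08 ± 0.798 CPM in Probiotics and 5.69 ± 0.691 CPM in Maltodextrin, with no call (adjusted p = 0.676). Of 16 genes of glucocorticoid receptors and targets, 4 were higher (25%) and 2 lower (12.5%), shares near those of all genes. Tsc22d3, also known as Gilz, fell to 136, 144, 143, 139.6 and 139 CPM in Probiotics, against 204, 214, 217, 211 and 243 CPM in Maltodextrin (log2 fold change -0.64, SE 0.0661, adjusted p = 2.13e-09), while Per1, Zbtb16 and Klf9, targets of the same receptor, rose by 1.41, 0.83 and 0.34. Fkbp5 and the receptor Nr3c1 were not called, at -0.12 and 0.11. Nr3c1 was called higher with only the groups compared (0.13, adjusted p = 0.0261) and against the mean of Maltodextrin and Control (0.28, adjusted p = 0.000631). Fkbp5 was called lower with the promoter GC correction (-0.25, adjusted p = 0.0413), whose limit is given below.

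Among 16 circadian clock genes, 4 were higher (25%) and 3 lower (18.8%), again near the shares of all genes. Nr1d1, a repressor of the clock, averaged 26.9 ± 0.801 CPM in Probiotics and 13.9 ± 1.67 CPM in Maltodextrin (0.95), while its relative Nr1d2 and the activator Clock fell by 0.37 and 0.24. Of 13 neurotrophin genes, 4 were higher and 2 lower. Cntfr, the receptor of ciliary neurotrophic factor, rose by 1.91, Ntrk2, the receptor of BDNF, by 0.22, and Ngfr by 0.57, while Ret, the receptor of GDNF family factors, fell by 0.54. The value of Ngfr corrected for promoter GC content, -0.33, is not relied on, for the reason given below. Bdnf averaged 28.1 ± 1.78 CPM in Probiotics and 29.2 ± 1.64 CPM in Maltodextrin and was not called (adjusted p = 0.606). Of 17 histone and DNA modifying enzymes, 7 were higher and 2 lower. The deacetylases Hdac5 and Hdac4, the histone methyltransferase Ehmt2 and the DNA methyltransferase Dnmt3a rose by 1.01, 0.75, 0.95 and 0.89.

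Several lead genes belong to no list. Diras1, a small GTPase of the brain, had 104, 108, 90.1, 106 and 105 CPM in Probiotics and 20.8, 23.2, 21.1, 24.6 and 19.3 CPM in Maltodextrin (log2 fold change 2.24, SE 0.17, adjusted p = 1.89e-12). Ppp1r9b, or spinophilin, a scaffold of dendritic spines, stood at 94.4, 93.6, 94.9, 90.1 and 95.6 CPM in Probiotics and 33.3, 33, 38.7, 35.8 and 37.8 CPM in Maltodextrin (log2 fold change 1.39, SE 0.0668, adjusted p = 3.15e-17). The other leaders upwards were Rnf44 (2.42), Dapk3 (2.05), Nfix (2.04), Pias4 (2.02), Bcl9l (1.98), Tspan9 (1.44) and Sema7a (1.41). They include a kinase (Dapk3), a nuclear factor of the NFI family (Nfix), a SUMO ligase (Pias4) and a semaphorin (Sema7a).

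Rasgrp1 was a lead gene by a single library. This exchange factor for Ras had 17.2, 15.9, 17.8, 439.9 and 15 CPM in Probiotics and 11.7, 12.8, 12.7, 12.5 and 9.83 CPM in Maltodextrin (log2 fold change 3.09, SE 0.63, adjusted p = 0.000147). Without Probiotics replicate 4 the fold change was 0.48 (adjusted p = 0.00249).

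Other lead genes were lower in Probiotics. Tsnax, the partner of the RNA-binding protein translin, had 104, 104, 103, 82.8 and 92.8 CPM in Probiotics and 209, 222, 228, 203 and 249.5 CPM in Maltodextrin (log2 fold change -1.19, SE 0.0897, adjusted p = 1.76e-12). Wsb1, a ubiquitin ligase subunit, stood at 32.5, 31.1, 37.3, 33.2 and 26.7 CPM in Probiotics and 68.6, 59.7, 68.1, 69 and 63.4 CPM in Maltodextrin (log2 fold change -1.03, SE 0.10, adjusted p = 3.32e-10), and Control, at 60.4 to 72.1 CPM, lay with Maltodextrin. The rest were Mogat1 (-1.35), Ctgf (-1.32), Lrrc14b (-1.14), Bc1 (-1.05), Qtrtd1 (-1.04), Abhd3 (-1.01), Tspan12 (-0.97) and Sec61g (-0.83), among them a matricellular growth factor (Ctgf), a neuronal non-coding RNA (Bc1) and a subunit of the protein channel of the endoplasmic reticulum (Sec61g). The call of Bc1 was lost without Probiotics replicate 3 (-0.99, adjusted p = 0.0509) and against the mean of Maltodextrin and Control (-0.33, adjusted p = 0.466).

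Most lead genes moved the same way in other brain regions. Of 16 leads that were higher in Raphe, 11 were also called higher in at least 7 of the other 9 regions, and of 15 that were lower, 12 were called lower in at least 7, among them 7 in all 9. Nfix was higher in all 9, from 0.90 in CGC to 2.48 in NACShell. Gabra6, Pcp2 and Lmx1a passed the filter on low counts in only 4, 3 and 5 of the other regions and so could not reach 7. The remaining leads below 7 were called the same way in 6 regions (Igf2), 4 (Fat2), 3 (Trh), 2 (Rasgrp1) and 1 (Cartpt). Calls in the opposite direction were made for Igf2 in 3 regions, for Rasgrp1, Sema7a and Cartpt in 2 each, and for Cntfr, Tac1 and Lmx1a in 1 each. Regions of the same treatment replicate may share rats, so these counts are not independent.

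A test of the difference between regions set the change in Raphe against the mean change in CGC, mPOA, NACShell and PLC. These 4 were chosen with the data known, since an earlier account of them reports no Probiotics or Maltodextrin group standing apart there. The test called 1758 of 12599 genes (14%), 873 with a more positive and 885 with a more negative difference in Raphe. Against all 9 other regions it called 2395 genes. Of the 46 lead and fixed genes tested, 29 passed. The lead genes were picked for their change in these same Raphe libraries, which favours a difference, so that share cannot be set against the 14%. Of the 29, 24 also passed the filter on low counts in all 4 regions. Trh, which passed that filter in 3 of them, fell more in Raphe than in the 4 regions (difference -2.22 on the log2 scale, SE 0.21, adjusted p = 5.46e-11). In mPOA, where it was not called (-0.033), its level on raw totals was 161 to 187 CPM in Probiotics and 157 to 177 CPM in Maltodextrin. Igf2 rose more in Raphe than in the 4 regions (difference 1.46 on the log2 scale, SE 0.0816, adjusted p = 1.11e-18). Tac1 and Cartpt also fell more in Raphe than in the 4 regions, with differences of -0.73 and -0.83. Outside these 4, Cartpt fell by about as much in LConly (-0.93) as in Raphe (-0.98), and Lmx1a by about as much in venDG (-1.03) as in Raphe (-1.0). Ddc fell more in LConly (-0.74) than in Raphe (-0.41). Ctgf fell more in dorDG (-3.93) and venDG (-1.74) than in Raphe (-1.32). Abhd3 fell more in dorDG (-2.58) and venDG (-1.57) than in Raphe (-1.01). No difference was called for Cox7c (difference -0.052 on the log2 scale, SE 0.0861, adjusted p = 0.754), Sec61g (difference -0.13 on the log2 scale, SE 0.0738, adjusted p = 0.251) or Tph2 (difference -0.24 on the log2 scale, SE 0.12, adjusted p = 0.192).

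**Figure D5:**
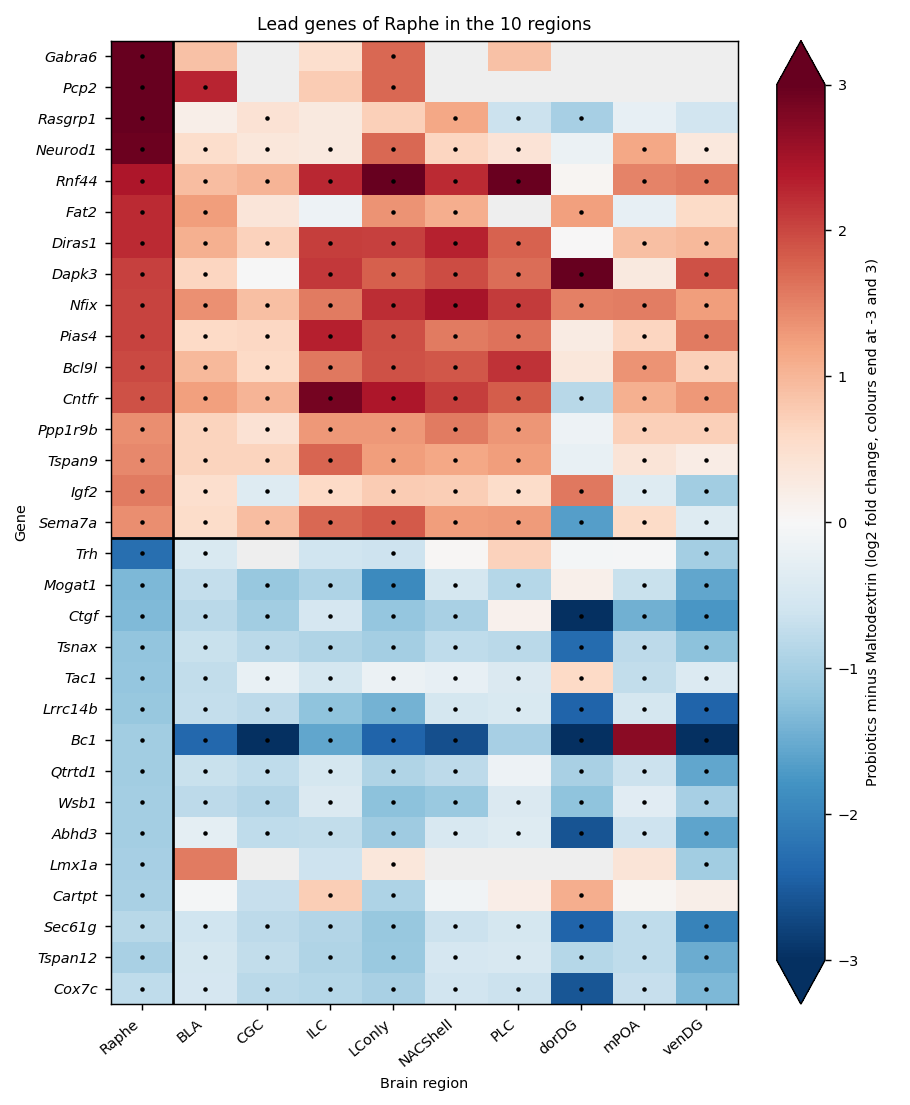
Log2 fold change of Probiotics against Maltodextrin (colour) of the 31 lead genes of Raphe (rows) in the 10 regions (columns, Raphe at the left), with a dot where the gene was called in that region and pale grey where it was not tested. Most rows keep 1 colour in most regions, while Igf2, Rasgrp1, Sema7a, Cartpt, Cntfr, Tac1 and Lmx1a were called in the opposite direction in at least 1 region.

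The direction of change went along with the base composition of promoters. RefSeq promoters on GRCr8, of 250 bases before and 50 after the start, were found for 9799 of the genes tested (80.3%). In the tenth of these genes with the lowest GC content, 10.8% were higher and 21.9% lower in Probiotics. In the tenth with the highest GC content, 32.7% were higher and 17.1% lower. The 14 higher leads with a promoter had a median GC content of 65.3% (42.3 to 86%), and the 12 lower leads 57.2% (39.7 to 71.3%). The promoters at both ends, the GC-richest of a higher lead and the GC-poorest of a lower lead, are shown with each CG pair in capitals.
Nfix (chr19:40260089-40260388, plus strand): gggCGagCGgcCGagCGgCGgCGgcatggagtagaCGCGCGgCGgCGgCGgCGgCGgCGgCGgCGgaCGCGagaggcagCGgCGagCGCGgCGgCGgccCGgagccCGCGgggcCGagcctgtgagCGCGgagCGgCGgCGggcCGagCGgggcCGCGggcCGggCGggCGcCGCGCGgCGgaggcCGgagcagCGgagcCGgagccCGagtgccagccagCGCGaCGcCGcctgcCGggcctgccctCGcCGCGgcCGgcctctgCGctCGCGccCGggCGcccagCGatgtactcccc
Mogat1 (chr9:87429177-87429476, plus strand): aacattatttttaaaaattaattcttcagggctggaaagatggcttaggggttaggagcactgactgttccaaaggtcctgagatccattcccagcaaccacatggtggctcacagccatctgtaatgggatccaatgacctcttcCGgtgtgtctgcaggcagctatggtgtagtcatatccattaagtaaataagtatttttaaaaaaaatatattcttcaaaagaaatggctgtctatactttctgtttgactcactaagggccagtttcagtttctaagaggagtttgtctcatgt
Nfix held 64 CG pairs and Mogat1 held 1, against a median of 7 over 27457 promoters. Mogat1 stood at 2.87, 1.83, 2.67, 1.83 and 2.59 CPM in Probiotics and 5.21, 4.95, 7.64, 6.41 and 6.38 CPM in Maltodextrin. Nfix stood at 16.4, 17.8, 15, 14.8 and 18 CPM in Probiotics and 4.04, 3.91, 3.82, 4.55 and 3.62 CPM in Maltodextrin, and neither gene's groups overlapped. With the counts corrected for promoter GC content in each library, over the 9799 genes, 1927 were higher and 1957 lower, and 3614 of the calls kept their direction. Calls of genes without a promoter could not be among those kept. Before the correction, genes grouped by promoter GC content had median changes from -0.073 (lowest GC) to 0.085 (highest GC). The correction moved Ngfr from 0.57 to -0.33 and Rpl27 from -0.54 to -0.17, shifts larger than any of these medians. The corrected values of Ngfr and Rpl27 are therefore not relied on, and the cause of the shifts was not tested. Whether other genes were shifted in this way was not tested. All counts under the correction are therefore given as they came out and are not taken as support. Under that correction 17 of 24 oxidative phosphorylation genes were lower, 16 of 20 synaptic vesicle genes higher and 4 of 5 cerebellar genes higher. Of 17 HCN and potassium channels with a promoter, 8 were higher and 1 lower. Forebrain excitatory neuron genes had 3 of 6 higher with a median of 0.41. Of 7 neurotrophin genes with a promoter none was higher and 1 was lower. The lower gene was Ngfr, whose corrected value is not relied on. Called neurotrophin genes without a promoter could not be counted, so these counts do not show that the rises of that list were lost.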

How the data were processed

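RNA from Raphe punches was sequenced as paired ends of a stranded total RNA library, per the labels' protocols. The deposited table holds raw counts per gene made by the authors. STAR, HTSeq, FastQC and the rat build rn6 are named in the submitters' processing notes, with versions not given in the sources used here. Samples were grouped by the region, treatment and replicate in the labels.

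Counts of all 30 Raphe libraries (6 treatments) were fitted in edgeR 4.0.16 (R 4.3.3) with TMM factors, filterByExpr and the quasi-likelihood test, with Benjamini-Hochberg adjustment over 12201 genes. Log2 CPM used a prior count of 2. No 2 libraries of a group agreed within sampling noise. The difference between regions used 50 libraries of Raphe, CGC, mPOA, NACShell and PLC, with a term for treatment replicate. Alternatives were other size factors, DESeq2 1.42.0, no filter, fewer libraries, a replicate block, leaving out each library, the mean of Maltodextrin and Control as comparator and, added after seeing the data, a correction for promoter GC content.

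The members and the 39 gene lists were chosen with earlier results of these data known. Lead genes were called genes with a mean log2 CPM of at least 2, an ordinary symbol and groups that did not overlap. They were the 12 with the largest change in each direction and the 6 with the smallest p. From each list up to 4 called members with the smallest p were named, and 15 fixed genes were named whether called or not. Adcyap1, Nmb, Nts, Penk, Vip, Tac3, Zic1, Zic2, Barhl1, Car8, Cbln1, Pvalb, Fezf2, Gata2, Ifit3 and Mbp are outside this rule and were named after their values were seen. Some members of the lists are counted but not reported here by name.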

Additional observations from a re-analysis of the deposited data

Results flagged for a closer look

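Within groups of 5 libraries, a value was set apart when its gap to the nearest other library exceeded 0.71 of the group's whole range. Of 316 groups looked at, 22 were set apart in this way, and chance alone sets apart about 1 in 20. Of these, 5 were in Probiotics and 17 in Maltodextrin, and in 14 of those 17 the far library was Maltodextrin replicate 5.

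In Probiotics, Rasgrp1 had a gap of 0.951 of the range, with replicate 4 at 439.9 CPM against 15 to 17.8 CPM in the others. Diras1 had a gap of 0.766, with replicate 3 at 90.1 CPM against 104 to 108 CPM. The serotonin transporter Slc6a4 had a gap of 0.862, with replicate 4 at 91.3 CPM against 103 to 105 CPM. Gabrb1 (gap 0.859, replicate 1) and Rpl27 (gap 0.85, replicate 5) were the remaining 2.

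In Maltodextrin, replicate 5 was far for Slc17a8 (0.915 of the range), at 24.9 CPM against 32.6 to 33.5 CPM in the others. For Htr2c (0.874) it was at 264 CPM against 247 to 249 CPM, and for Hbb (0.916) at 1785 CPM against 1519 to 1539 CPM. It was the high library for Lrrc14b (0.874), Uqcrfs1 (0.802), Rpl5 (0.731), Cct4 (0.75), Sqle (0.713) and Fos (0.752). It was the low library for Bc1 (0.853), Slc6a11 (0.868), Ntrk2 (0.73), Atp1b2 (0.796) and Slc4a4 (0.834). Replicate 1 was far for Grin2c (0.756) and replicate 3 for Slc17a7 (0.81) and Hdac5 (0.803).

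For 29 genes the change in Raphe differed from the mean change in CGC, mPOA, NACShell and PLC by the test of that difference. The lead genes among them were picked for their change in these same Raphe libraries. Values are the change in Raphe minus that mean, on the log2 scale. Of the 29, 24 passed the filter on low counts in all 4 regions. Fat2 and Trh passed it in 3, Gabra6 and Lmx1a in 1 and Pcp2 in none, so their values there rest on few counts. It was positive for Gabra6 (3.56), Rasgrp1 (2.33), Neurod1 (2.32), Pcp2 (1.64), Fat2 (1.54), Igf2 (1.46), Dapk3 (1.08), Pias4 (0.93), Diras1 (0.84), Tspan9 (0.61), Bcl9l (0.52), Slc17a8 (0.47), Sema7a (0.43), Ppp1r9b (0.40) and Maob (0.15). It was negative for Trh (-2.22), Lmx1a (-1.98), Cartpt (-0.83), Tac1 (-0.73), Crh (-0.63), Lrrc14b (-0.52), Ctgf (-0.45), Ddc (-0.44), Abhd3 (-0.43), Qtrtd1 (-0.42), Tsnax (-0.37), Tspan12 (-0.33), Wsb1 (-0.31) and Gad2 (-0.25). The value of Rasgrp1 leans on Probiotics replicate 4, without which its change in Raphe was 0.48. A difference from the mean of the 4 regions does not make a change particular to Raphe. Ddc, for instance, fell more in LConly (-0.74) than in Raphe (-0.41).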

How the results depend on the processing

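The counts of genes higher and lower stayed within 1.5 times the reported ones under every alternative run, with 1927 to 2821 higher and 1957 to 2925 lower. They were 2486 and 2479 with RLE size factors, 2335 and 2498 without the filter on low counts, 2445 and 2451 with DESeq2, 2821 and 2612 with only the groups compared, 2559 and 2925 against the mean of Maltodextrin and Control, and 1927 and 1957 with the correction for promoter GC content, which was chosen after seeing the data. Leaving out 1 library at a time gave 2195 to 2357 higher and 2201 to 2504 lower, 4805 to 5121 called against Control for Probiotics, and 3572 to 3966 for Maltodextrin. With replicate number as a block, 2498 genes were higher and 2732 lower. Same-numbered libraries did not deviate together, with correlations of -0.028, -0.032, -0.018, 0.077 and 0.11, so the numbers were not taken as a pairing. The difference between regions called 1573 genes without the filter on low counts, 1732 with RLE size factors and 2395 against all 9 other regions. It called 1626 with no replicate block, and 1320 to 1810 when a replicate was left out. Among named genes, 54 values of 18 genes lost their call, 13 of them against the mean of Maltodextrin and Control, 7 values of 5 genes gained one, and 14 values of 8 genes changed sign. Slc18a2, near 0 in the main result, turned to 0.0023 with RLE size factors, 0.014 with only the groups compared, 0.0019 with DESeq2, and lay between -0.030 and 0.014 without single libraries. Against the mean of Maltodextrin and Control, Sncg (0.0053), Csf1r (-0.0079), Slc6a4 (-0.22), Htr1a (-0.049), Maob (-0.18) and Bdnf (0.11) changed sign. With the promoter GC correction, Ngfr (-0.33) did, and the cause was not tested. Depth limits the scarce genes most, such as Htr6, Rln3, Fezf2 and Zic1.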

Other observations

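Rln3 and Igf2 placed the 6 groups in different orders. For Rln3, Desipramine was at 2.47 to 5.49 CPM and FT at 0.78 to 1.81 CPM, beside 0.0819 to 0.386 CPM in Probiotics, 2.24 to 2.73 CPM in Maltodextrin and 0.777 to 1.57 CPM in Control. For Igf2, Probiotics lay among Bupropion, Desipramine and FT and above both Maltodextrin and Control.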
